A study of Homo sapiens with 6 samples.

Results

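Hyaluronan is a long unbranched sugar polymer of the extracellular matrix, and the 10 genes described here make it, cut it or bind it at the cell surface. They were chosen by symbol, by a rule that uses no measured value, and with earlier results of these data known: the synthases HAS1, HAS2 and HAS3, the hyaluronidases HYAL1, HYAL2 and HYAL3, the hyaluronan depolymerases CEMIP and CEMIP2, and the receptors CD44 and HMMR. All 10 were present among the 28395 genes counted, and 9 passed the filter on low counts, which left 14873 genes for testing. Coordinates are on GRCh38, the build (hg38) to which the authors aligned. The data are bulk RNA-sequencing of U251MG, an established human glioblastoma cell line, with 3 libraries from WT cells and 3 from NUAK2-CR cells, in which the kinase gene NUAK2 was targeted with CRISPR-Cas9. The labels give no treatment or time for either group. The NUAK2-CR lines of the study were grown from single sorted cells that carried guide vectors marked with GFP and mCherry, and the labels name no clone, so the loss of NUAK2 and anything else that a single clone carries cannot be told apart here.

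Total counts per library ranged from 29648445 to 55574081, and the first principal component, with 79.6% of the variance, set the groups apart. NUAK2 itself (gene 81788) had 1926, 1457 and 1580.1 normalized counts in WT against 799, 961 and 849 in NUAK2-CR, where a normalized count is a count scaled to the mean effective library size. Every NUAK2-CR library lay below every WT library, at a mean of 52.6% of WT (log2 fold change -0.93 ± 0.11 SE, adjusted p = 1.8e-05 by edgeR). Of 8 glial and glioma markers, 6 were tested and all 6 were lower in NUAK2-CR, with a summed level of 220631 to 225919 normalized counts in WT and 96504 to 103254 in NUAK2-CR, OLIG2 at 0 and AQP4 at no more than 2 counts in any library. The 7 fibroblast markers summed to 60558 to 64763 in WT and 75346 to 80127 in NUAK2-CR, and 3 of them were higher and 3 lower. Marker counts are of genes with an adjusted p under 0.05 by edgeR. Of all tested genes, 26.3% were higher and 28.2% lower by that threshold. Endothelial markers were low (17.2 to 31.2 in WT and 84.4 to 90.2 in NUAK2-CR, 2 of 3 higher), and 1 leukocyte marker (644 to 733 against 201 to 244) and 1 epithelial marker (203 to 290.2 against 22.0 to 38.6, summed over 3 genes) were lower, with the leukocyte marker AIF1 at 0. The part of these shifts in the results on hyaluronan genes was not tested, and in bulk RNA fewer cells of a type and less RNA per cell cannot be told apart. The labels do not name separate cultures, so p-values measure only the spread between these libraries.

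Hyaluronan is unusual among matrix glycans because it is made at the plasma membrane, where a synthase joins UDP-glucuronic acid and UDP-N-acetylglucosamine and pushes the growing chain out of the cell. HAS2 and HAS3 differ from HAS1 in the conditions under which they work and in the chain lengths they give, and HAS2 is the main synthase of mesenchymal tissues. Long chains are first cut at or near the cell surface and then taken up and broken down in lysosomes. CD44 is the principal surface receptor for hyaluronan and links it to the actin cytoskeleton through ERM proteins. HMMR, also called RHAMM, was described as a hyaluronan-binding motility protein and is better known as a spindle protein that rises in G2 and mitosis. Brain matrix is rich in hyaluronan, and CD44 is widely used as a marker of mesenchymal-like glioma cells.

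Of the 4 members whose level changed in NUAK2-CR, the promoters of 3 are shown so that the letters upstream of genes that fell (HMMR and CD44) can be set beside those of one that rose (CEMIP). Each sequence is the 250 bases before the gene start on the plus strand, which is the strand of all 3 genes, from RefSeq on GRCh38.p14, in lower case with motif matches in capitals. Among the 10 members, 9 matched an entry, all but HAS2.
HMMR, chr5:163460382-163460631: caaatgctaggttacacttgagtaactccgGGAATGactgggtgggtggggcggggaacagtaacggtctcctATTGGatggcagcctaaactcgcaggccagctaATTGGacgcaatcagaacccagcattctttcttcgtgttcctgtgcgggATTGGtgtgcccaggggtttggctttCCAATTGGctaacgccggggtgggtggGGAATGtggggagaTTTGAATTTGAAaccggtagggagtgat
CD44, chr11:35138921-35139170: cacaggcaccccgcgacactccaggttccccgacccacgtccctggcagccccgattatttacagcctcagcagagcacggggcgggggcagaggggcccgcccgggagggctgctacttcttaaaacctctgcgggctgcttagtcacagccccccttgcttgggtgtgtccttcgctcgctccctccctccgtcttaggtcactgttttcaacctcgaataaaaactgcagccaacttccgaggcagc
CEMIP, chr15:80779120-80779369: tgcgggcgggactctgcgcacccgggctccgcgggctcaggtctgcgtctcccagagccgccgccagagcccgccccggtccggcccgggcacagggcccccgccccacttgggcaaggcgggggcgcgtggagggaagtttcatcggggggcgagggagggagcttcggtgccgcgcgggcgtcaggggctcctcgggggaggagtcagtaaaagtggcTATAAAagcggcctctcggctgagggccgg

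Both strands were searched for 5 short motifs. The CCAAT box was read as the letters CCAAT. The cell cycle genes homology region (CHR) was read as TTTGAA, and the core of TEAD sites as GGAATG. An AP-1 site was read as TGANTCA, with any base at N, and a TATA box as TATAAA. The HMMR promoter held 5 CCAAT matches, 1 on the gene's strand and 4 on the other (written ATTGG above), beginning 177, 144, 95, 69 and 66 bases before the start, and the last 2 share bases. CCAAT was present in 32% of the 35116 promoters of the table. HMMR also held 2 adjoining TTTGAA matches, at 28 and 22 bases (13.3% of promoters have at least 1), and 2 GGAATG matches, at 220 and 42 bases (11.9%). Of 14 mitotic genes listed as companions of HMMR, 11 had an entry in the table, with 13 promoters between them. A gene was counted when any of its promoters matched, and 11 of those 11 held CCAAT, 6 TTTGAA and 1 GGAATG. The shares of promoters count each promoter singly, so the units differ. The CEMIP promoter held TATAAA 30 bases before the start (10.7% of promoters), and the CD44 promoter held none of the 5 motifs. TGANTCA (6.57% of promoters) was in none of the 3. Members outside the 4 that changed held matches too, TTTGAA in HAS1 and GGAATG in HYAL2 and HYAL3. Among promoters of tested genes the shares were 32.9% for CCAAT, 9.3% for TTTGAA and 9.8% for GGAATG. They were 6.23% for TATAAA and 4.7% for TGANTCA. A match is a run of letters and not a measured binding site.

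In NUAK2-CR cells, HAS2 and CEMIP rose, CD44 and HMMR fell, and the remaining 5 tested members did not pass the threshold. A gene was called changed when its adjusted p was under 0.05 by edgeR over all 14873 tested genes. The 4 called members are 44.4% of the 9 tested. Of all tested genes, 54.5% were called in either direction (26.3% higher and 28.2% lower). With 9 members these shares are close, and no difference from the background is read from them. With DESeq2, 3 members were higher and 2 lower. Both members that rose also passed the study's threshold for a DEG, an absolute log2 fold change over 2 besides the adjusted p, which 4.72% of all tested genes passed (1.89% higher and 2.83% lower). The WT and NUAK2-CR libraries did not overlap for 5 of the 9 members, HAS2, HYAL3, CEMIP, CD44 and HMMR, against 61.4% of all tested genes. The median log2 fold change of the 9 members was -0.03, and that of all tested genes was -0.01.

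**Figure D1:**
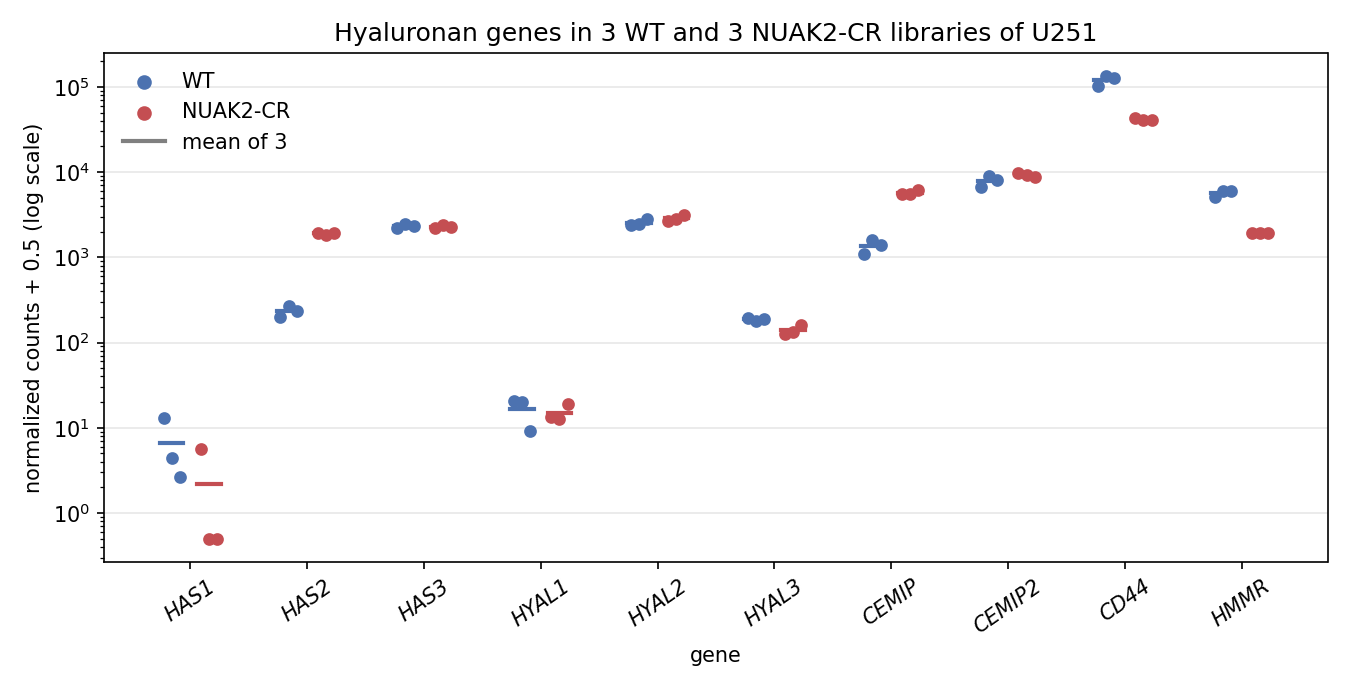
Normalized counts plus 0.5 on a log scale for each hyaluronan gene, with 1 point per library (3 WT, 3 NUAK2-CR) and a line at the mean of each group. HAS2 and CEMIP libraries of NUAK2-CR sit above all WT libraries, CD44 and HMMR libraries sit below, and HAS3 libraries interleave.

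Of the synthases, HAS2 alone was called, and it rose. HAS2 (gene 3037, chromosome 8, 121612116 to 121641440) had 199.9, 271 and 231 normalized counts in WT against 1952, 1834 and 1929 in NUAK2-CR. Every NUAK2-CR library was several times above every WT library, and the NUAK2-CR libraries lay close together. The mean rose from 234 ± 35.7 to 1905 ± 62.2 (SD, n = 3 each), or 814% of WT, with a fitted log2 fold change of 3.03 ± 0.11 (SE, 95% interval 2.79 to 3.27, adjusted p = 6.87e-10 by edgeR). The value stayed between 2.93 and 3.15 under all alternatives tried. HAS2 is among the matrix genes that the study itself picked as altered both in these libraries and in glioblastomas compared by NUAK2 level. The direction of HAS2 is therefore not independent of that choice. Its antisense gene HAS2-AS1 shares 2095 bases with it and had 15.3, 14.5 and 12.9 normalized counts in WT against 66.0, 83.2 and 51.6 in NUAK2-CR (log2 fold change 2.21 ± 0.33 SE, adjusted p = 0.000119 by edgeR). The study's methods give default parameters for the counting, which do not use strand. Reads in the stretch shared by HAS2 and HAS2-AS1 therefore cannot be assigned to either gene by strand. Shared bases, here and below, are counted over whole gene spans, introns included. The antisense gene had far fewer counts than HAS2 in every library.

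HAS3 (gene 3038, chromosome 16, 69083484 to 69118719) had 2213, 2491 and 2304 normalized counts in WT against 2206, 2390.3 and 2267 in NUAK2-CR. The libraries of the groups interleaved. The log2 fold change was -0.03 ± 0.07 (SE, adjusted p = 0.755 by edgeR) with a 95% interval of -0.19 to 0.13, which leaves room for only a small change in either direction. HAS3 overlaps TANGO6 by 1699 bases and CHTF8 by 710 bases at its ends, and neither was called (log2 fold changes 0.12 and -0.18). HAS1 (gene 3036, chromosome 19, 51713112 to 51723991) was close to the floor, with 19, 4 and 2 raw counts in WT against 4, 0 and 0 in NUAK2-CR, where a count of 0 allows up to 3 counts at this depth. It did not pass the filter on low counts. Fitted without that filter, its adjusted p was 0.226 by edgeR, and DESeq2 gave 0.326, so no difference was detectable at this depth.

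Levels per length let the synthases be compared with each other. They are CPM (on effective library sizes) per kilobase of the reference transcript of each gene, and they carry no test. On this scale HAS3 had a level of 14.9 ± 0.900 in WT and 14.6 ± 0.598 in NUAK2-CR, and HAS2 went from 1.47 ± 0.224 to 12.0 ± 0.391 (SD, n = 3). HAS1 stood at 0.0786 ± 0.0711 in WT and 0.0214 ± 0.0371 in NUAK2-CR. HAS2 therefore made up 8.11%, 9.69% and 9.01% of the summed synthase level in the WT libraries and 46.5%, 43.1% and 45.7% in the NUAK2-CR libraries. The share of HAS3 was 90.6% ± 0.464 in WT and 54.8% ± 1.87 in NUAK2-CR (SD, n = 3). HAS3 remained the synthase with the higher level in all 6 libraries, and the sum of the 3 synthases was 16.4 ± 1.08 in WT (15.5 to 17.6) and 26.6 ± 0.186 in NUAK2-CR (26.4 to 26.7).

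**Figure D2:**
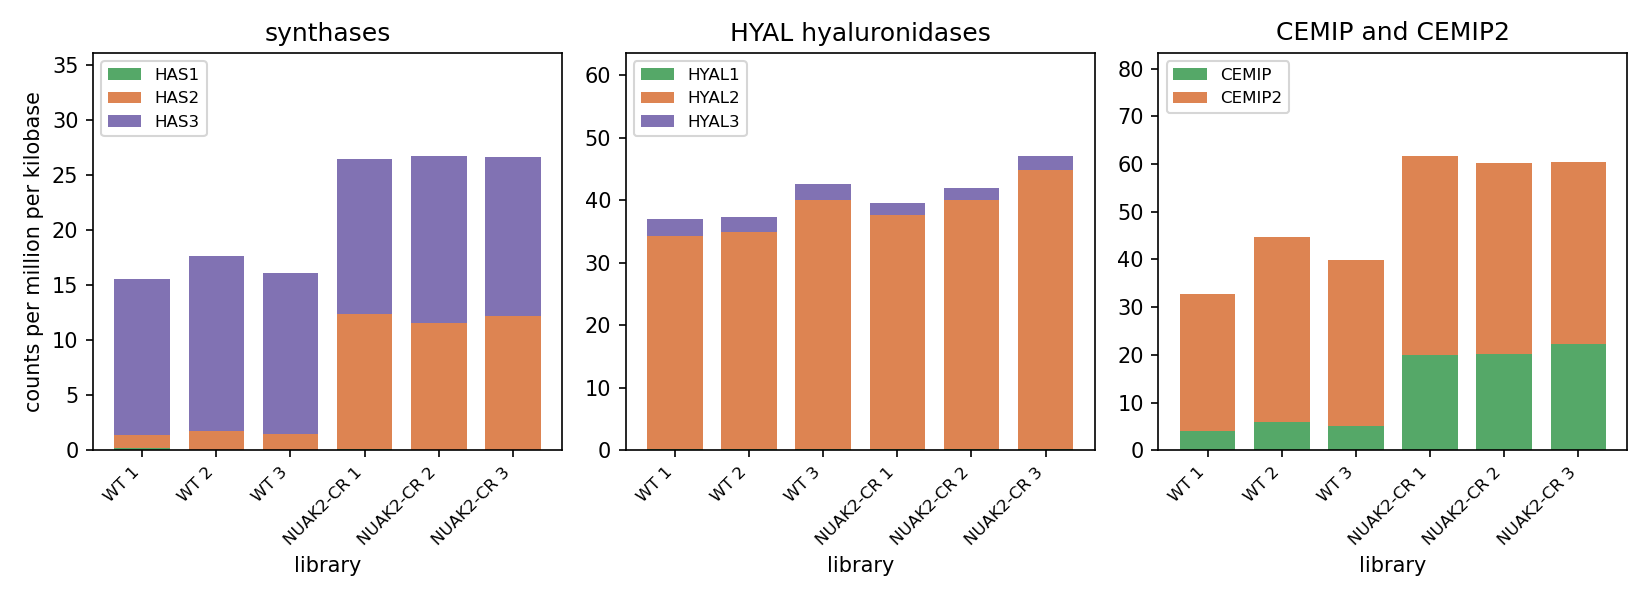
Stacked levels per length (CPM per kilobase) in each of the 6 libraries for the synthases, the HYAL hyaluronidases and the CEMIP pair. HAS2 takes 8.11% to 9.69% of the synthase level in WT and 43.1% to 46.5% in NUAK2-CR, while HYAL2 fills most of the hyaluronidase bar in every library.

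Among the genes that cut hyaluronan, CEMIP was the only one called. CEMIP, a secreted or surface protein needed for hyaluronan depolymerisation in fibroblasts (gene 57214, chromosome 15, 80779370 to 80951771), had 1099, 1606 and 1406 normalized counts in WT against 5492, 5564 and 6147 in NUAK2-CR. All NUAK2-CR libraries lay far above all WT libraries, among which replicate 1 was the lowest. The mean rose from 1370.3 ± 256 to 5734 ± 359 (SD, n = 3), or 418% of WT, for a fitted log2 fold change of 2.07 ± 0.12 (SE, 95% interval 1.81 to 2.32, adjusted p = 2.73e-08 by edgeR). Without WT replicate 1 the value was 1.93, still called but under the fold threshold for a DEG, which left 1 member, HAS2, past both thresholds in place of 2. CEMIP overlaps MESD, a chaperone gene, by 5483 bases at its end, and MESD had a log2 fold change of 0.00 (adjusted p = 0.994 by edgeR).

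CEMIP2, also known as TMEM2, is a membrane protein related to CEMIP (gene 23670, chromosome 9, 71683366 to 71769466). It had normalized counts of 6636, 9001 and 8005 in WT and 9633, 9258 and 8795 in NUAK2-CR. The groups overlapped, since WT replicate 2 exceeded NUAK2-CR replicate 3. The log2 fold change was 0.23 ± 0.10 (SE, 95% interval 0.02 to 0.44), and the adjusted p of 0.0649 by edgeR missed the threshold. It passed with DESeq2 (0.24, adjusted p = 0.0387) and when WT replicate 2 was left out (0.33, adjusted p = 0.00891 by edgeR). CEMIP made up 12.7% ± 0.433 of the summed level of the pair in WT and 34.2% ± 2.39 in NUAK2-CR (SD, n = 3), and the sum was 39.1 ± 6.07 in WT (32.7 to 44.8) and 60.8 ± 0.757 in NUAK2-CR (60.3 to 61.7).

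The 3 HYAL genes lie side by side on chromosome 3, HYAL3 (gene 8372, 50292832 to 50299405), HYAL1 (gene 3373, 50299893 to 50312381) and HYAL2 (gene 8692, 50317808 to 50322745), and none of the 3 was called. HYAL2, a GPI-anchored enzyme that cuts long chains at the cell surface, had 2399.9, 2443 and 2817 normalized counts in WT against 2649, 2822 and 3146 in NUAK2-CR. Its groups overlapped, with a log2 fold change of 0.17 ± 0.09 (SE, adjusted p = 0.112 by edgeR). Without WT replicate 3 it was 0.24 and passed (adjusted p = 0.0399 by edgeR). HYAL3, whose enzymatic role is less clear, had 195, 177 and 187 normalized counts in WT against 124, 134 and 159 in NUAK2-CR. These groups did not overlap, yet the log2 fold change of -0.42 ± 0.17 (SE, 95% interval -0.79 to -0.05) had an adjusted p of 0.053 by edgeR. Without NUAK2-CR replicate 3 it was -0.53 and passed (adjusted p = 0.0365 by edgeR). NAA80, an actin acetyltransferase gene, lies within HYAL3 over 3004 bases and had a log2 fold change of -0.12 (adjusted p = 0.527 by edgeR). Reads in the bases shared by HYAL3 and NAA80 cannot be assigned to either gene with certainty.

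HYAL1, a lysosomal hyaluronidase, had only 30, 20 and 8 raw counts in WT against 10, 10 and 17 in NUAK2-CR. The HYAL1 log2 fold change of -0.16 ± 0.47 (SE, adjusted p = 0.796 by edgeR) had a wide 95% interval, -1.18 to 0.86, and was 0.05 without WT replicate 1, so neither direction was detectable at this depth. HYAL2 held 91.8% to 93.5% of the summed HYAL level in WT and 94.7% to 95.1% in NUAK2-CR, and the sums overlapped between the groups, at 37.0 to 42.7 in WT and 39.5 to 47.1 in NUAK2-CR.

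Both receptors fell, and by nearly the same factor. CD44 (gene 960, chromosome 11, 35139171 to 35232402) had 103358, 133631 and 128655 normalized counts in WT against 42920.1, 40989.6 and 41359 in NUAK2-CR. Every NUAK2-CR library was well below the lowest WT library, which was replicate 1. The mean went from 121881 ± 16233 to 41756 ± 1025 (SD, n = 3), or 34.3% of WT, with a log2 fold change of -1.55 ± 0.09 (SE, 95% interval -1.74 to -1.35, adjusted p = 3.81e-08 by edgeR). Gene-level counts add up all splice forms of CD44, so the standard and the variant forms cannot be told apart. HMMR (gene 3161, chromosome 5, 163460632 to 163491941) had 5153, 5926 and 5936 normalized counts in WT against 1935, 1914 and 1941 in NUAK2-CR. The NUAK2-CR libraries were nearly equal and all far below WT. Its mean of 34.0% of WT gave a log2 fold change of -1.55 ± 0.07 (SE, 95% interval -1.72 to -1.39, adjusted p = 6.43e-09 by edgeR). HMMR-AS1 overlaps HMMR by 9338 bases and had at most 15 raw counts in any library. Neither receptor passed the fold threshold for a DEG, and with a threshold of 1 in its place all 4 called members would pass.

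**Figure D3:**
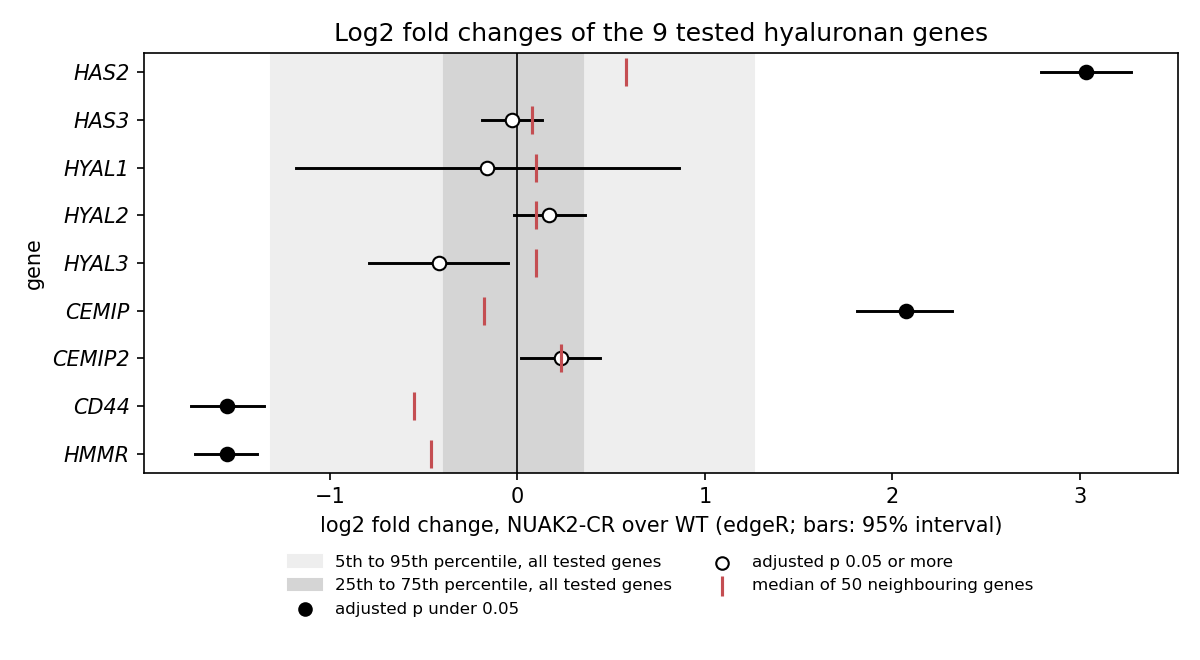
Log2 fold change of NUAK2-CR over WT with its 95% interval for the 9 tested hyaluronan genes, over grey bands that mark the central percentiles of all 14873 tested genes and with a red tick at the median of the 50 neighbouring genes. HAS2 at 3.03 and CEMIP at 2.07 lie on the right, and CD44 and HMMR at -1.55 on the left. The other 5 lie between HYAL3 at -0.42 and CEMIP2 at 0.23, and the intervals of these outer genes leave out 0.

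Ordered by level per length in WT, the members ran CD44, HMMR, HYAL2, CEMIP2, HAS3, CEMIP, HYAL3, HAS2, HYAL1 and HAS1. CD44 stood at 598 ± 79.7 and ranked 69 among 18736 protein-coding genes, and HMMR stood at 50.1 ± 3.97 (rank 1469). The ranges of HYAL2 (36.2 ± 3.25) and CEMIP2 (34.2 ± 5.15) overlapped, as did those of HYAL1 and HAS1, and the other neighbours in this order did not. In NUAK2-CR the order ran CD44, HYAL2, CEMIP2, CEMIP, HMMR, HAS3, HAS2, HYAL3, HYAL1 and HAS1. CD44 at 205 ± 5.03 (rank 233) still led, and the ranges of HYAL2 (37.5 to 44.6) and CEMIP2 (38.1 to 41.7) overlapped here too. CEMIP went from 4.97 ± 0.927 (rank 7910) to 20.8 ± 1.30 (rank 3400), and HMMR went to 17.1 ± 0.126 (rank 4011), so CEMIP stood above HMMR in NUAK2-CR and below it in WT. HAS2 moved from rank 10335 to 5215, and HYAL3 went from 2.64 ± 0.129 to 1.98 ± 0.255. CD44 held 92.2% of the summed receptor level in WT and 92.3% in NUAK2-CR.

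The genes around HAS2, CD44 and HMMR were mostly shifted in the direction of the member itself. For each member, the median log2 fold change of the 50 nearest tested genes, 25 on each side, is given as its local median. It was 0.58 around HAS2, where 47 of 50 neighbours were above 0, and HAS2 exceeded 48 of the 50 and lay above the local median by 2.45. SNTB1, the next gene before HAS2, had a log2 fold change of 2.23 (adjusted p = 8.44e-09 by edgeR) at a distance of 800069 bases. Around CEMIP the local median was -0.18, opposite in sign to CEMIP itself, which exceeded 49 of 50 neighbours.

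Around CD44, 41 of 50 neighbours were below 0 and the local median was -0.55. The log2 fold change of CD44 minus that median was -0.99. Of the 50 neighbours, 8 had lower values than CD44. SLC1A2, a glutamate transporter gene next after CD44, had a log2 fold change of -2.19 (adjusted p = 8.08e-05 by edgeR), and CD44-DT, 1138 bases before it, had -1.04 (adjusted p = 0.0314 by edgeR), a call lost without any 1 of 4 libraries. Around HMMR, 40 of 50 were below 0 and the local median was -0.46. The value of HMMR minus that median was -1.10, and 2 neighbours had lower values than HMMR. Its direct neighbours NUDCD2 and MAT2B had -0.45 and -0.48. The part of these regional shifts in the changes of HAS2, CD44 and HMMR was not tested. For the other 6 members the local median lay between 0.08 and 0.23. Around CEMIP2 it was 0.23, the same as the log2 fold change of CEMIP2 itself.

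**Figure D4:**
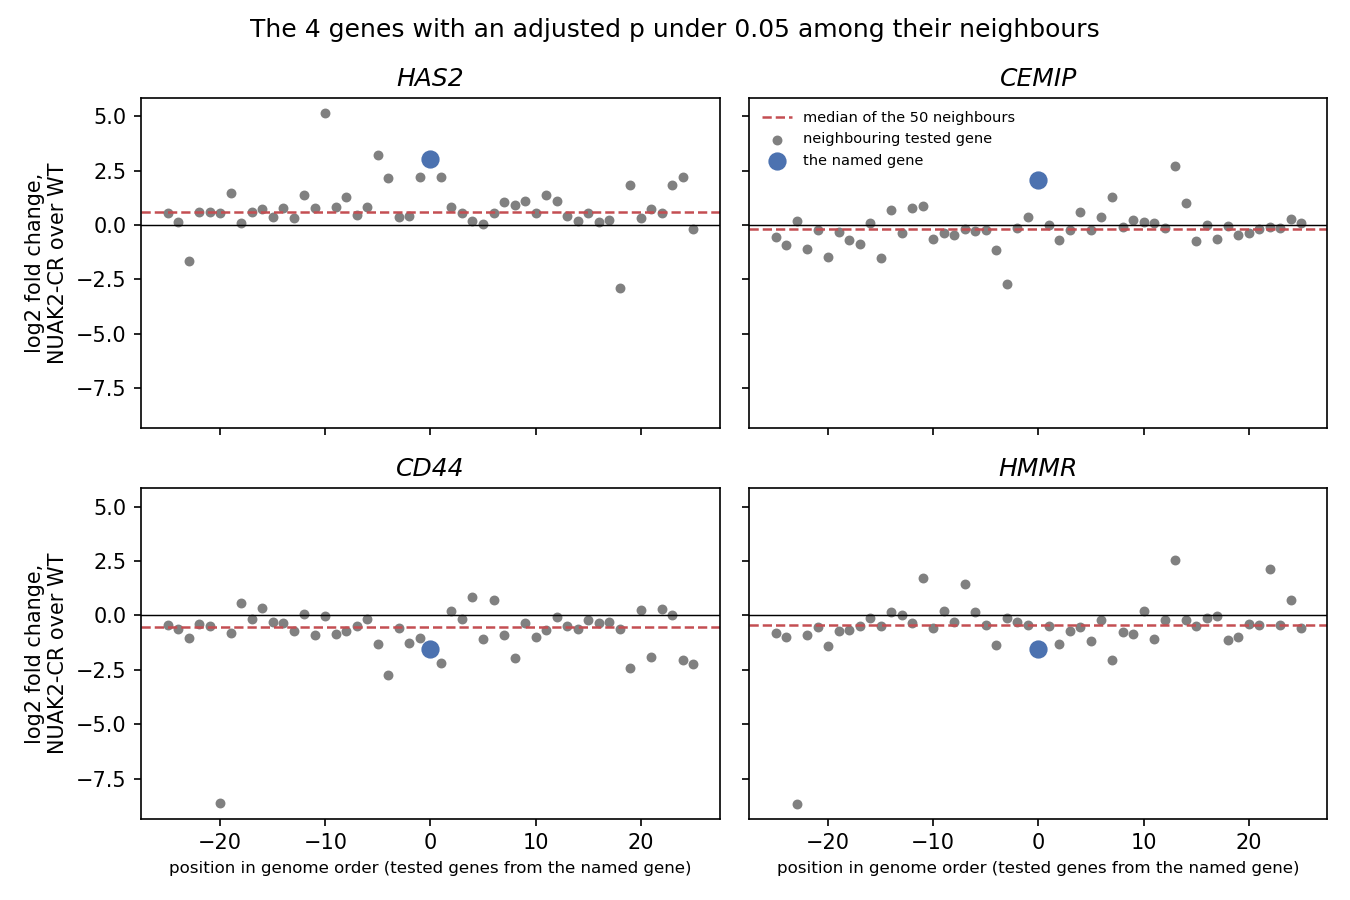
Log2 fold change of NUAK2-CR over WT for each of the 4 called members (large point) and its 50 nearest tested genes in genome order (small points), with the local median as a dashed line. The local median is 0.58 around HAS2, -0.18 around CEMIP, -0.55 around CD44 and -0.46 around HMMR.

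Genes that feed, finish or bind hyaluronan were taken from lists set by their role. They are given by counts and by the median, beside -0.01 for all tested genes. Counts higher and lower, here and in the lists that follow, stand beside 26.3% and 28.2% of all tested genes. The UDP-sugar supply list holds 7 genes for the precursors of the synthases, of which 2 were higher and 3 lower (median 0.14). UGDH, which makes UDP-glucuronic acid, rose from 1641 ± 2.41 to 2336 ± 81.8 normalized counts (SD, n = 3), for a log2 fold change of 0.51 ± 0.07 (SE, adjusted p = 3.8e-05 by edgeR). On the arm that makes UDP-N-acetylglucosamine, GFPT1 rose (0.26, adjusted p = 0.00418 by edgeR), and GFPT2 (-0.60), UAP1 (-0.58) and PGM3 (-0.36) fell, with adjusted p-values of 6.98e-06, 1.74e-05 and 0.00133 by edgeR. GFPT1 and GFPT2 encode enzymes of the same first step and moved in opposite directions.

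Of 5 further breakdown genes, HYAL4 and SPAM1 had 0 counts in all libraries, 3 were tested, and 2 rose (median 0.43). These were the lysosomal enzymes GUSB (0.64, adjusted p = 1.15e-05 by edgeR) and HEXA (0.43, adjusted p = 0.000738 by edgeR). Of 6 further receptors 3 were tested (median -0.26), and LYVE1 was at 0. STAB2, a scavenger receptor, rose from a low 33.7 ± 1.56 to 97.1 ± 25.9 normalized counts (log2 fold change 1.52, adjusted p = 0.000502 by edgeR). LAYN, a membrane lectin that binds hyaluronan, fell by 0.27 on the log2 scale (adjusted p = 0.0256 by edgeR), a call lost when any 1 of 5 libraries was left out, all but WT replicate 1.

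Of 16 genes of hyaluronan-binding matrix proteins, 7 were tested, 5 rose and 1 fell (median 0.88). ITIH5 was 1 of the 5, with an adjusted p of 0.0466 by edgeR that missed the threshold when any 1 of 5 libraries was left out (all but NUAK2-CR replicate 3), so that 4 rose, and 4 rose with DESeq2 too. VCAN, the large proteoglycan versican, rose from 6769 ± 1248 to 16649 ± 1836 normalized counts (SD, n = 3), for a log2 fold change of 1.30 ± 0.12 (SE, adjusted p = 2.21e-06 by edgeR). PTX3, a pentraxin that helps to crosslink hyaluronan, rose by 2.29 (adjusted p = 1.36e-08 by edgeR) and TNFAIP6, which transfers protein chains onto hyaluronan, by 1.70 from a low level of 29.6 ± 13.0 (adjusted p = 0.00121 by edgeR). BCAN, the brain proteoglycan brevican, fell from 335 ± 41.2 to 117 ± 8.79 normalized counts (log2 fold change -1.51, adjusted p = 5.51e-06 by edgeR). The link protein gene HAPLN1 had 1, 2 and 0 raw counts in WT against 0, 0 and 5 in NUAK2-CR and was not tested.

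Of 11 CD44 partners, 4 were higher and 5 lower (median 0.19, or -0.23 without WT replicate 1). The ERM genes, whose proteins tie the tail of CD44 to actin, fell together with it: RDX by 1.29, MSN by 0.76 and EZR by 0.69 on the log2 scale, with adjusted p-values of 2.82e-08, 6.9e-07 and 2.12e-06 by edgeR. SPP1, which encodes the CD44 ligand osteopontin, had 3843, 7047 and 7061 normalized counts in WT against 1717, 1740.3 and 1721 in NUAK2-CR. The WT libraries were widely spread and all lay above NUAK2-CR. The SPP1 log2 fold change was -1.79 (adjusted p = 4.16e-06 by edgeR). In the opposite direction, MMP14, a membrane protease that can shed CD44, went from 6482, 7519 and 7664 to 31818, 33253 and 31615 normalized counts, for a log2 fold change of 2.16 ± 0.08 (SE, adjusted p = 6.87e-10 by edgeR). MMP14, like HAS2, is a gene the study picked from these libraries together with the tumour comparison. The sheddases ADAM10 (0.41, adjusted p = 0.00286 by edgeR) and ADAM17 (0.26, adjusted p = 0.0344 by edgeR) were also higher, and the call of ADAM17 was lost without NUAK2-CR replicate 1 or 3.

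HMMR was set beside 14 mitotic spindle and G2/M genes, of which 13 fell and none rose. BRCA1 alone was not called (-0.12, adjusted p = 0.154 by edgeR). Of all tested genes, 28.2% were lower and 26.3% higher. With a library left out 11 to 13 of the 14 mitotic genes fell, and KIF11, a spindle motor gene, lost its call in 4 of 6 such fits. Their median log2 fold change was -0.72, against -1.55 for HMMR itself. CCNB1, a mitotic cyclin, had -1.51, PLK1, a mitotic kinase, -1.27, and AURKA, a spindle kinase that works with HMMR and TPX2, -1.17, with adjusted p-values of 5.01e-09, 3.28e-08 and 5.46e-08 by edgeR. The value of CCNB1 lay within the 95% interval of HMMR, and the other 13 lay above it. MKI67, a general marker of cycling cells, had 42185, 42014 and 32768 normalized counts in WT against 34157, 30815 and 26055 in NUAK2-CR, which overlap (log2 fold change -0.36, adjusted p = 0.0158 by edgeR), and its call was lost without WT replicate 2 or NUAK2-CR replicate 3. How far the change of HMMR follows from that of mitotic genes was not tested.

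**Figure D5:**
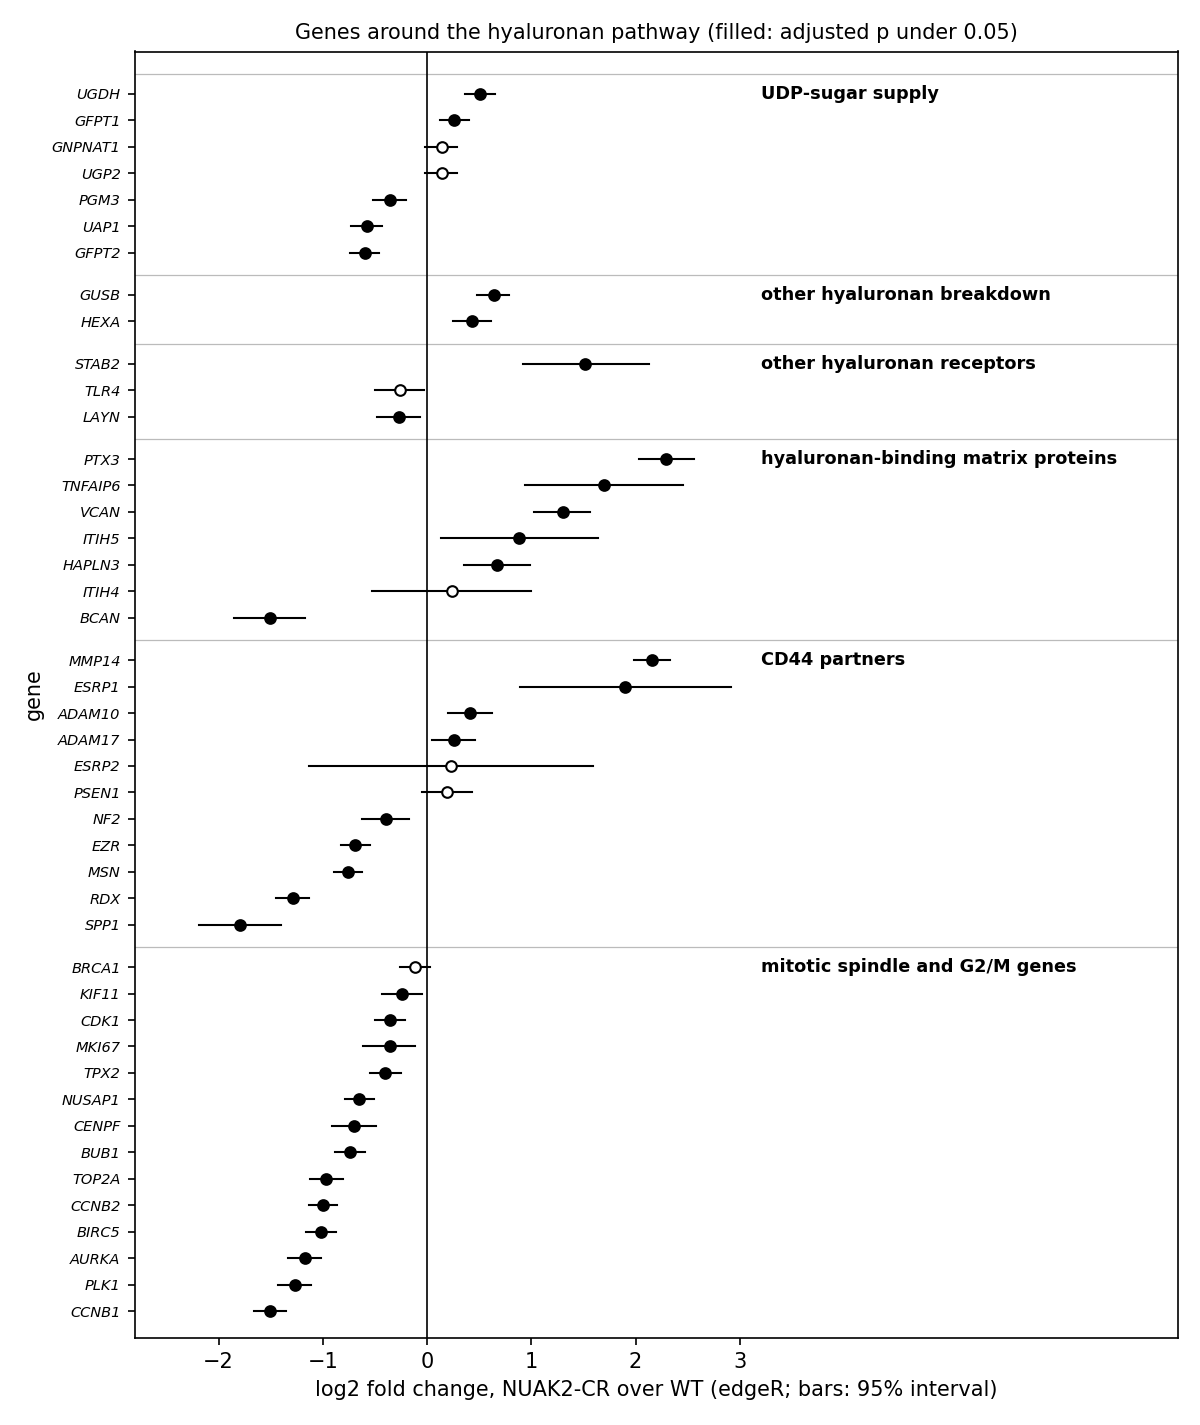
Log2 fold change of NUAK2-CR over WT with its 95% interval for tested genes of 6 lists around the hyaluronan pathway, where filled points have an adjusted p under 0.05. Mitotic genes lie to the left of 0, matrix binders other than BCAN to the right, and the CD44 partners on both sides, from SPP1 at -1.79 to MMP14 at 2.16.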

How the data were processed

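Per the labels and the methods of the study, RNA was isolated with TRIzol, only samples with a high RNA integrity number were used, and libraries were made with a stranded mRNA kit. The authors trimmed reads with Trimmomatic, used HISAT2 to align them to hg38, and deposited raw counts per gene made with featureCounts, with default parameters at each step. The default of featureCounts does not use strand. The gene annotation is not given in the sources used here. A symbol was found for 27745 of the 28395 gene identifiers and not for 650. All columns of the table were used.

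Counts were tested in R 4.3.3 with edgeR 4.0.16 (filterByExpr, TMM, glmQLFit, quasi-likelihood F test, prior count 0.125, Benjamini-Hochberg adjustment over 14873 genes). The common biological coefficient of variation was 0.101. The study used DESeq2, which served as an alternative here (1.42.0). The pipeline was tested on simulated data. Total counts ranged from 29648445 to 55574081, and a count of 0 was taken to allow up to 3 counts, which covers counting error only. Levels used the MANE Select transcript of GENCODE on GRCh38. Summaries and plots were made in Python 3.11.15 (pandas 2.3.3, matplotlib 3.10.9).

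The named genes are the 10 members, NUAK2, genes that overlap or neighbour a member, up to 3 genes per direction of each list with an adjusted p under 0.05 and a higher group mean of 50 or more normalized counts, and UGDH, VCAN, HAPLN1, MMP14, AURKA and MKI67. EZR, BRCA1, TPX2, ITIH5 and KIF11 fall outside that rule and were named after their values were seen. The values of 1 tested list gene are not reported here. The members and lists were chosen with earlier results of these data known. The alternatives were DESeq2, no filter, 10 or more counts in every library, scaling by RLE or by library size, a prior count of 2, a replicate block, each library left out in turn, an absolute log2 fold change over 1, coding length in place of transcript length, and windows of 10 and 50 genes on each side.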

Additional observations from a re-analysis of the deposited data

How the results depend on the processing

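The labels give both groups the same replicate numbers, but the deviations of same-numbered libraries did not correlate (Pearson r 0.0428, -0.0352 and 0.0478 for numbers 1, 2 and 3), and WT replicate 2 correlated best with NUAK2-CR replicate 1 (0.0207), so the numbers were not taken as pairs. With a replicate block 3972 genes were higher and 4195 lower, and CEMIP2 passed (0.24).

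HAS2, CEMIP, CD44 and HMMR kept their direction and their call under all alternatives, and the shares of the synthases and of the HYAL genes moved by less than the spread between libraries in the alternatives run for them. Without division by length the share of CEMIP in its pair was 14.8% in WT and 38.3% in NUAK2-CR, and that of CD44 among the receptors 95.5% and 95.6%. CEMIP2 also passed with DESeq2 (0.24), without a filter (0.22) and with library-size scaling (0.23). Leaving out each library in turn gave 0.12 to 0.33 for CEMIP2, -0.06 to 0.02 for HAS3, -0.43 to 0.05 for HYAL1, 0.10 to 0.24 for HYAL2 and -0.53 to -0.33 for HYAL3. HAS3 changed sign without WT replicate 2 (0.02) or NUAK2-CR replicate 1 (0.01), and HYAL1 without WT replicate 1 (0.05). Members past both thresholds numbered 1 to 2 with a library left out and 4 at an absolute log2 fold change over 1. With at least 10 counts in every library, where fewer genes are tested, 339 of all genes passed both thresholds in place of 702. Of the other receptors, 2 were lower without a filter or with the block, and 0 to 2 with a library left out. The median of CD44 partners was -0.40 with at least 10 counts in every library, where fewer genes are tested, and -0.23 to 0.26 with a library left out, with -0.23 without WT replicate 1. The cause of the other changes was not tested.

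Per kilobase of coding length in place of the whole transcript, which shortens every gene, WT and NUAK2-CR levels were 1459.8 and 500.1 for CD44, 69.5 and 23.7 for HMMR, 48.0 and 54.0 for HYAL2, 50.6 and 59.3 for CEMIP2, 37.5 and 36.8 for HAS3, 8.95 and 37.4 for CEMIP, 3.97 and 2.97 for HYAL3, 3.77 and 30.7 for HAS2, and 0.326 and 0.296 for HYAL1. CEMIP2 then stood above HYAL2 in both groups, and in NUAK2-CR HMMR stood below HAS3 and HAS2. With 10 genes on each side the local median was 0.05 for HAS1, 0.84 for HAS2, 0.04 for HAS3, 0.05 for HYAL2 and HYAL3, 0.17 for CEMIP2 and -0.80 for CD44. With 50 on each side it was 0.18 for HAS1, 0.03 for HAS3, -0.42 for CD44 and -0.40 for HMMR.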
